A study of Mus musculus with 8 samples.

Results

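The 47 mitosis and cytokinesis genes described here encode proteins that build the spindle, attach and separate chromosomes and cut the dividing cell apart. They were chosen by name in the table of gene counts, where all 47 stand among 41250 listed genes, and all 47 passed the filter on low counts, which a gene can pass through its counts in either state. Splenic B cells of 4 genotypes were profiled by RNA-seq, each in 2 states, with 1 library per genotype and state and 8 libraries in all. The mutants were mice homozygous for a deletion of the 3'RR, of hs3b-hs4 or of the 3'PAL, and the controls were wild-type mice of the same strain label, mixed background 129/C58BL/6. The 3'RR (3' regulatory region) is a cluster of enhancers downstream of the immunoglobulin heavy chain constant genes, hs3b and hs4 are enhancers within it, and the 3'PAL is named for the palindrome that the cluster forms. B cells were purified on a density gradient by removal of CD43-positive cells, and each library came from a pool of 4 animals, so differences between animals are averaged within a library. Stimulated cells had been cultured for 48 hours with 5 µg/mL lipopolysaccharide (LPS), a bacterial cell wall component that drives B cells to divide, and then passed over a second gradient. Resting cells were fresh and not cultured, so stimulation, culture and the second gradient changed together. The sources used here do not give the age and sex of the mice.

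Cells enter mitosis when cyclin B and cyclin A bind Cdk1, with help from the Plk1 and Aurora kinases. The spindle checkpoint holds the anaphase promoting complex back until each chromosome is attached, after which that complex has securin and the mitotic cyclins destroyed and separase releases the sister chromosomes. Most of these genes are transcribed late in the cell cycle, and their promoters are known for a short element called the cell cycle genes homology region (CHR), bound by the DREAM and B-Myb complexes, and for CCAAT boxes, bound by NF-Y. Naive B cells in the spleen are mostly out of cycle, and LPS brings them into it.

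Promoters of 3 genes of the cyclin and Cdk1 group and of 2 genes of the chromosomal passenger complex are shown. These groups were chosen by role, and the sequences show how the CHR and CCAAT letters are laid out. Of the same groups Ccna2, Cdc25c, Aurkb and Incenp are named only. Each sequence comes from RefSeq on GRCm38.p6, runs 5′ to 3′ in the direction of the gene from 250 bases before to 50 bases after its start, and has capitals on the letters TTTGAA of the CHR and on CCAAT, both searched on both strands, so that CCAAT on the other strand reads ATTGG.
Ccnb1 (minus strand, chr13:100786437-100786736): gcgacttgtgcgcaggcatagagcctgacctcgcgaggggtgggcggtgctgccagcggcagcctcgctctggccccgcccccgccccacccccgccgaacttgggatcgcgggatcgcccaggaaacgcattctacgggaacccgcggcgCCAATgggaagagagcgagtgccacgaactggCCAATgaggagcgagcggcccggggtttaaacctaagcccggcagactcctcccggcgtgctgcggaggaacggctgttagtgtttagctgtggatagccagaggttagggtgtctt
Ccnb2 (minus strand, chr9:70421505-70421804): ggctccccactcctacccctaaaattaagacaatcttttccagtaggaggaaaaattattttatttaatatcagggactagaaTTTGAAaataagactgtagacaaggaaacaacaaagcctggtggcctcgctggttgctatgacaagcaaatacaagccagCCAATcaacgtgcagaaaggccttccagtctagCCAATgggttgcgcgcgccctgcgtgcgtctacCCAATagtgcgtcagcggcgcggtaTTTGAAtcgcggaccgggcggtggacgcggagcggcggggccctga
Cdk1 (minus strand, chr10:69352863-69353162): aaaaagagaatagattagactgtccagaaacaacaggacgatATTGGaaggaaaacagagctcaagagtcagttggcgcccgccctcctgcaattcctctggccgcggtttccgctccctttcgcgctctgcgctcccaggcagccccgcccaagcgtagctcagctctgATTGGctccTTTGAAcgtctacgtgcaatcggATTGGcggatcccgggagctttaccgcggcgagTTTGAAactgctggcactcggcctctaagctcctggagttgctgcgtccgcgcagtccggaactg
Cdca8 (minus strand, chr4:124936868-124937167): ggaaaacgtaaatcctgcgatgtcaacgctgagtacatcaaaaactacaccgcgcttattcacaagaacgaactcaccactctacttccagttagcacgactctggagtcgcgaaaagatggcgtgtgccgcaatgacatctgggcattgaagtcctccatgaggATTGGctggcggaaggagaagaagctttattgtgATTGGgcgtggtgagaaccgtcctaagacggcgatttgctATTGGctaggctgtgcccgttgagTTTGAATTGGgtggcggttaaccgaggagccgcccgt
Birc5 (plus strand, chr11:117848987-117849286): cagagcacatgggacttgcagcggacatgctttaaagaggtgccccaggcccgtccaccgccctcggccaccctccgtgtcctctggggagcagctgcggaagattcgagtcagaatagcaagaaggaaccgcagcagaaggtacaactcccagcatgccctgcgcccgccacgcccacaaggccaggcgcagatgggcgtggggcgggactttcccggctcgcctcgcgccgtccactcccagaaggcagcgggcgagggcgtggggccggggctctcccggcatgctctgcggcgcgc
Ccnb2 and Cdk1 carried 2 matches to the CHR letters TTTGAA each, Cdca8 carried 1, and Ccnb1 and Birc5 carried none in this window. No other letters were searched for the CHR. The CHR of Ccnb2 nearest to the start began 4 bases after it, that of Cdk1 15 bases before it and that of Cdca8 13 bases after it. CCAAT matches numbered 2 in Ccnb1, 3 in Ccnb2, 3 in Cdk1 and 4 in Cdca8. In Cdca8 the CHR and the last CCAAT match share a base.

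Of the 47 genes, 38 matched a RefSeq promoter of this kind. The CHR letters TTTGAA were found in 29 of the 38 (76.3%), against 17.9% of all 32851 promoters of the same length. CCAAT was found in 29 (76.3%), against 37.4% of all promoters, and both motifs stood in 25 (65.8%), against 6.95%. Ect2 and Prc1 have 2 overlapping windows each, and with each place in the genome counted once there were 37 CHR matches. Their median first base stood 5 bases before the nearer start, and 27 of the 37 lay within 60 bases before to 50 bases after it. Pttg1, Nuf2, Ncaph and Mad2l1 carried neither motif in the window, like Birc5. A match of letters is a description of the sequence and no evidence of binding.

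Library totals ran from 17883683 counts (wild-type, resting) to 28785192 counts (wild-type, stimulated), and levels are given as CPM, that is, counts scaled to a common library size with TMM factors for composition. The resting wild-type library, the denominator of every resting ratio to wild-type, stood apart: its estimated counts from kallisto came to 1.02 times its gene counts, against 0.725 to 0.774 times in the other 7 libraries. A transcript of the pseudogene Gm15662 held 36.5% of its TPM (transcript abundance scaled by length), against 0.395% to 9.69% in the others. The part of this in the resting ratios was not tested. The 6 B cell markers summed to between 2321 and 3147 CPM in every library. T cell markers summed to at most 62.9 CPM and neutrophil markers to at most 3.85 CPM. The 8 monocyte and macrophage markers all fell with stimulation and summed to 15.1, 8.76, 8.59 and 7.33 CPM in stimulated 3'RR deletion, hs3b-hs4 deletion, 3'PAL deletion and wild-type cells, against 1252, 556, 281 and 375 CPM in resting ones. Markers of red cell precursors also stood much higher in resting libraries and are given beside the resting levels. The part of either in the change with stimulation was not tested.

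After 48 hours with LPS, all 47 genes rose (edgeR quasi-likelihood test over 4 stimulated and 4 resting libraries with genotype as a term, Benjamini-Hochberg adjusted p under 0.05). In the same fit 69.7% of 14789 genes tested were called, 34.5% higher and 35.2% lower. The log2 fold changes ran from 1.20 for Cenpa to 4.15 for Shcbp1, with a median of 3.3, beside a median of -0.02 over all genes. In 46 of the 47 genes every stimulated library stood above every resting one, a separation that 39.0% of genes with at least 10 CPM in a library also showed. The exception was Pttg1. Without the resting 3'RR and 3'PAL deletion libraries, a run not planned beforehand, all 47 also rose, with a median of 3.79. Markers of red cell precursors summed to 13624 and 21818 CPM in the libraries left out. They were also high in the resting hs3b-hs4 deletion library that was kept (10757 CPM, against 3119.8 CPM in wild-type). The run therefore does not remove the summed signal of these markers, most of which is globin RNA. Klf1, Gata1 and Slc4a1, markers whose levels are given below, stood much higher in the resting libraries left out than in those kept. The genotypes stand in for replicates in this test, and the genotype term takes up their differences in level. Its errors thus measure how unequal the change between the states was across genotypes. In a bulk sample, more cells in cycle and more RNA of these genes in each cell cannot be told apart.

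**Figure D1:**
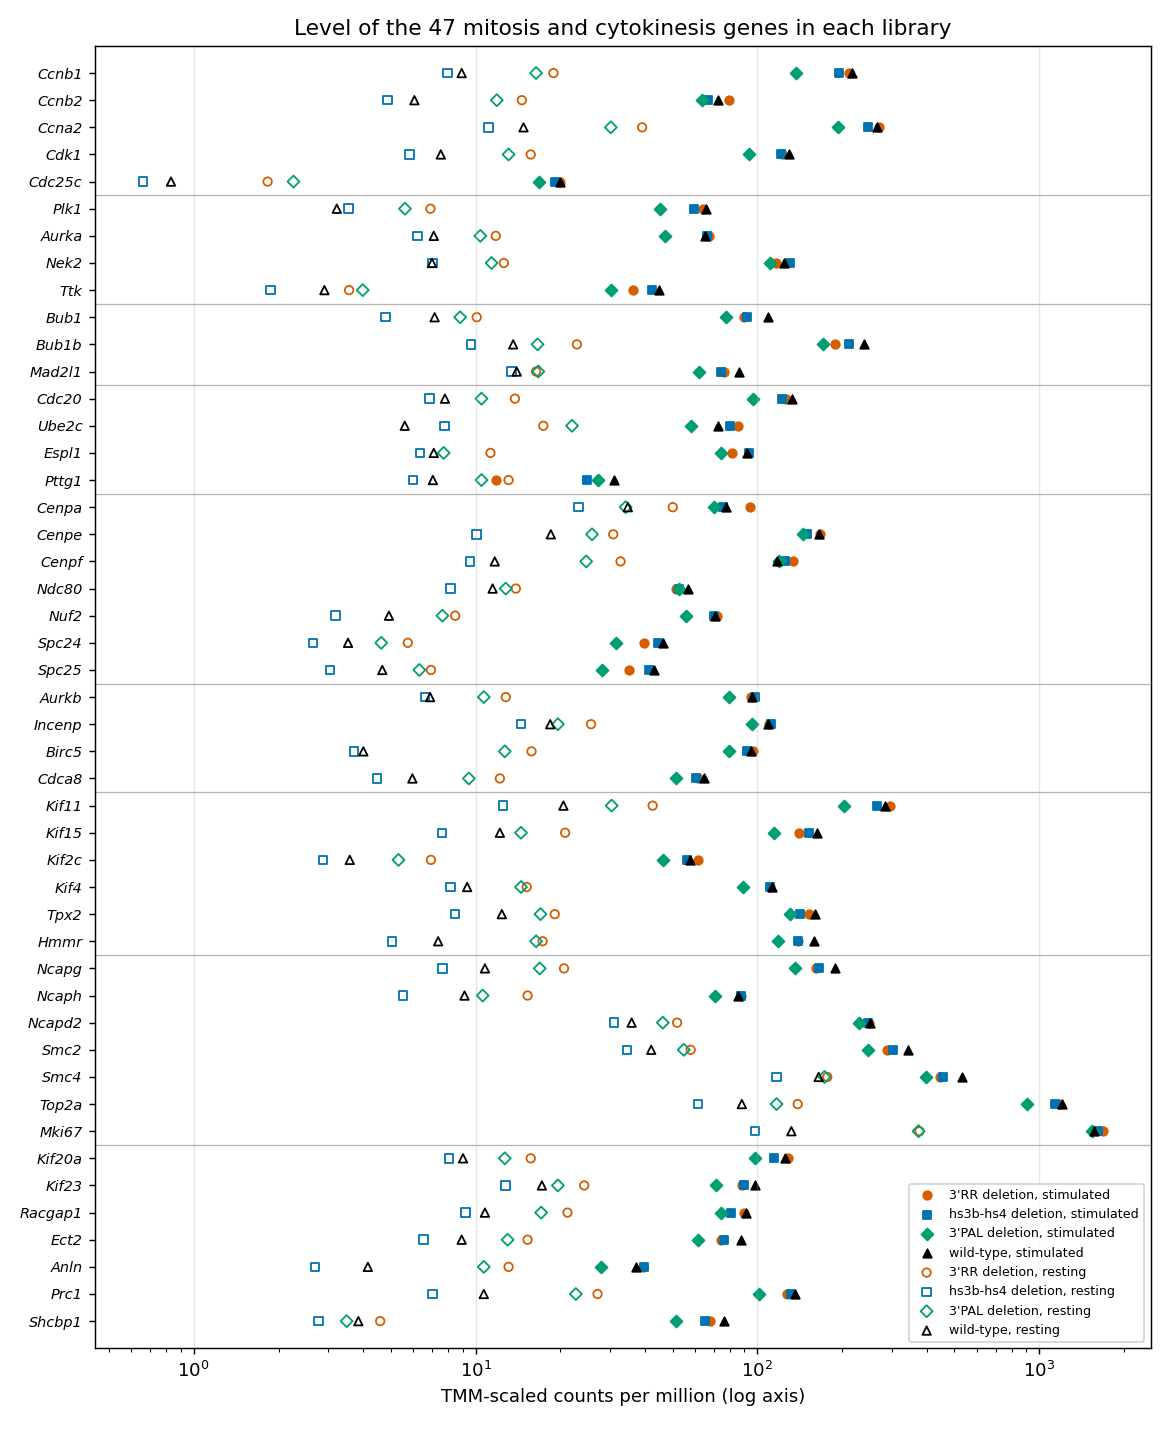
Level of each of the 47 genes in each of the 8 libraries, in TMM-scaled CPM on a log axis, with stimulated libraries as filled and resting libraries as open symbols and lines between the 9 roles. Filled symbols lie to the right of open ones in 46 genes, Pttg1 being the exception, and among open symbols the hs3b-hs4 deletion is the lowest in 44 genes, on this scale.

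Among the cyclins and their kinase, Ccnb1, which encodes cyclin B1, stood at 211, 194, 137 and 216 CPM in stimulated 3'RR deletion, hs3b-hs4 deletion, 3'PAL deletion and wild-type cells, against 18.9, 7.95, 16.4 and 8.93 CPM in the resting cells of the same genotypes. The lowest stimulated library thus held 7.26 times the level of the highest resting one, and Ccnb1 rose by 3.91 ± 0.294 on the log2 scale (SE, edgeR adjusted p = 3.2e-05). Ccna2, which encodes cyclin A2, a partner of kinases in both S phase and mitosis, stood at 269, 247, 193 and 266 CPM in the stimulated libraries, against 39.0, 11.1, 30.2 and 14.8 CPM in the resting ones. It rose by 3.50 ± 0.343 (edgeR adjusted p = 9.9e-05), with the groups apart and the resting libraries more widely spread than the stimulated ones. Exons of Ccna2 overlap Exosc9 on the other strand over 14.6% of their length, and the sources used here do not give the strand setting of the counting, so reads of such pairs may not be separated. Cdk1, Ccnb2 and Cdc25c, whose phosphatase activates Cdk1, rose by 3.53, 3.02 and 3.82. At rest Cdc25c stood at between 0.662 and 2.26 CPM.

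The 4 mitotic kinases rose by 2.81 to 3.69. Nek2, a kinase of centrosome separation, stood at 116, 130.2, 111 and 124 CPM in stimulated 3'RR deletion, hs3b-hs4 deletion, 3'PAL deletion and wild-type cells, against 12.6, 7.05, 11.4 and 7.01 CPM at rest. The stimulated libraries lay close together, and the change was 3.69 ± 0.205 (edgeR adjusted p = 1.3e-05). Aurka, the Aurora kinase of the spindle poles, stood at 67.2, 66.1, 47.0 and 65.4 CPM, against 11.8, 6.23, 10.4 and 7.11 CPM, a change of 2.81 ± 0.213 (edgeR adjusted p = 3.4e-05). Here the stimulated 3'PAL deletion library was the low one. Plk1, a kinase of mitotic entry and exit, rose by 3.62 and Ttk, a checkpoint kinase, by 3.64.

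All 3 checkpoint genes rose. Mad2l1, which encodes Mad2, the checkpoint protein that binds Cdc20, stood at 75.9, 74.3, 61.9 and 86.2 CPM in the stimulated libraries, against 16.4, 13.4, 16.7 and 14.0 CPM in the resting ones, and its change was 2.29 ± 0.132 (edgeR adjusted p = 1.4e-05). Its resting libraries were the most alike of the 3 genes. Bub1b, which encodes the checkpoint protein BubR1, stood at 188, 211, 171 and 239.8 CPM, against 22.9, 9.62, 16.6 and 13.6 CPM, a change of 3.74 ± 0.249 (edgeR adjusted p = 2.2e-05). Bub1, a kinase at the kinetochore, rose by 3.60.

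Among the partners of the anaphase promoting complex and the separation genes, Espl1, which encodes separase, stood at 81.6, 93.1, 74.4 and 91.9 CPM in the stimulated libraries, against 11.3, 6.35, 7.71 and 7.11 CPM at rest (log2 fold change 3.41 ± 0.178, edgeR adjusted p = 1.1e-05). Pttg1, which encodes securin, the inhibitor that holds separase in check, is the exception named above. It stood at 11.8, 24.8, 27.3 and 31.1 CPM in stimulated 3'RR deletion, hs3b-hs4 deletion, 3'PAL deletion and wild-type cells, against 13.1, 6.00, 10.5 and 7.06 CPM at rest. Its stimulated 3'RR deletion library lay below the resting library of the same genotype, and the change over all genotypes was 1.36 ± 0.368 (edgeR adjusted p = 0.013). The change was 1.85 without the resting 3'RR deletion library and 2.07 without the resting 3'RR and 3'PAL deletion libraries, and 1.10 was its lowest value over the settings tried. Cdc20, an activator of the complex, rose by 3.64 and Ube2c, which brings ubiquitin to it, by 2.64. The exons of Ube2c overlap Tnnc2 on the other strand over 22.8% of their length.

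The 7 kinetochore and centromere genes rose by 1.20 to 3.52. Ndc80, a subunit of the complex that grips microtubules, stood at 51.4, 52.9, 52.7 and 56.7 CPM in the stimulated libraries, against 13.9, 8.14, 12.8 and 11.5 CPM at rest (2.22 ± 0.143, edgeR adjusted p = 2e-05). Its stimulated libraries were nearly level with one another. Cenpa, which encodes the histone H3 variant of centromeres, had the smallest change of the 47 genes. It stood at 94.2, 75.8, 70.3 and 77.7 CPM, against 50.1, 23.2, 34.1 and 34.7 CPM, with the lowest stimulated library at 1.4 times the highest resting one (1.20 ± 0.136, edgeR adjusted p = 0.0002). The other subunits of the Ndc80 complex, Nuf2, Spc24 and Spc25, rose by 3.52, 3.3 and 2.83. Cenpe, a kinetochore motor, rose by 2.98 and Cenpf, a large kinetochore protein, by 2.81.

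The chromosomal passenger complex corrects faulty attachments and then moves to the midzone of the spindle. Incenp, its scaffold, stood at 110.2, 112, 95.4 and 109 CPM in stimulated 3'RR deletion, hs3b-hs4 deletion, 3'PAL deletion and wild-type cells, against 25.7, 14.5, 19.6 and 18.4 CPM at rest (2.47 ± 0.146, edgeR adjusted p = 1.5e-05). Birc5, which encodes survivin, stood at 96.2, 92.2, 79.6 and 94.9 CPM, against 15.8, 3.70, 12.7 and 4.00 CPM (3.52 ± 0.404, edgeR adjusted p = 0.00021). Its resting libraries fell into a higher pair, the 3'RR and 3'PAL deletions, and a lower pair, the hs3b-hs4 deletion and wild-type. Aurkb, the kinase of the complex, rose by 3.34 and Cdca8, which encodes borealin, by 2.96.

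Of the spindle motors and spindle proteins, Tpx2, which activates Aurora A on microtubules, stood at 153, 142, 131 and 160.2 CPM in the stimulated libraries, against 19.1, 8.45, 17.0 and 12.4 CPM at rest (3.41 ± 0.206, edgeR adjusted p = 1.6e-05). Hmmr, a microtubule-binding protein of the spindle, stood at 139, 139, 118 and 159 CPM, against 17.3, 5.06, 16.4 and 7.37 CPM (3.71 ± 0.356, edgeR adjusted p = 9e-05). In both genes the groups were apart, and the resting 3'RR and 3'PAL deletion libraries lay above the other resting ones. The kinesins Kif11, Kif15, Kif2c and Kif4, which slide, cross-link or shorten spindle microtubules or act on chromosome arms, rose by 3.20 to 3.60. Exons of Kif4 overlap Pdzd11 on the other strand over 15.1% of their length.

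Among the condensins and chromosome proteins, Ncapd2, a condensin subunit, stood at 249, 247, 229 and 250.3 CPM in the stimulated libraries, against 51.9, 31, 46.2 and 35.8 CPM at rest (2.59 ± 0.146, edgeR adjusted p = 1.3e-05). The direction for Ncapd2 depended on the source of the counts. With the kallisto estimates it was -0.49 (edgeR adjusted p = 0.0072). In those estimates a transcript of 682 bases (chromosome 6, 125184520 to 125186595, minus strand) held 91.3% to 99.5% of the gene's TPM, and the small RNA gene Scarna10 (chromosome 6, 125186359 to 125186683, minus strand), which shares exon sequence with it, was listed at 0 counts in the gene table. The full-length transcript of 4629 bases had 6219, 5756, 5914 and 6397 estimated counts in the stimulated libraries, against 1318, 709.5, 1001 and 599 in the resting ones. Mki67, which encodes the Ki-67 protein that coats mitotic chromosomes, stood at 1677, 1621, 1539 and 1561 CPM, against 376, 98.1, 373 and 132 CPM (2.95 ± 0.371, edgeR adjusted p = 0.00033). Top2a, the topoisomerase that untangles sister chromosomes, rose by 3.50. Smc2 and Smc4, the ATPase core of condensin, rose by 2.66 and 1.54, and the condensin subunits Ncapg and Ncaph by 3.61 and 3.09. Exons of Ncapg overlap Lcorl on the other strand over 13.3% of their length.

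The 7 cytokinesis genes rose by 2.25 to 4.15. Shcbp1, which binds the centralspindlin complex at the midbody, stood at 68.0, 65.3, 51.3 and 76.3 CPM in the stimulated libraries, against 4.59, 2.77, 3.49 and 3.84 CPM at rest. Its lowest stimulated library held 11.2 times the level of its highest resting one, the widest separation of the 47 genes (4.15 ± 0.144, edgeR adjusted p = 4e-06). Anln, which encodes anillin, a scaffold of the contractile ring, stood at 39.2, 39.7, 27.8 and 37.2 CPM, against 13.1, 2.69, 10.7 and 4.15 CPM (2.41 ± 0.419, edgeR adjusted p = 0.0016). Here the resting 3'RR and 3'PAL deletion libraries lay well above the other resting ones. Centralspindlin is made of Kif23 and Racgap1, which rose by 2.25 and 2.58, and Ect2, the exchange factor that it brings to the cortex, rose by 2.82. Prc1, a bundler of midzone microtubules, rose by 3.02 and Kif20a, a midzone motor, by 3.39. Exons of Kif20a overlap Cdc23 on the other strand over 33.2% of their length.

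Compared per length, in TPM summed per gene, in stimulated wild-type cells, Top2a had 397, Smc4 223, Cdk1 201 and Mki67 178 TPM. At the low end Espl1 had 16.1, Cdc25c 12.6 and Anln 8.04 TPM. Ncapd2 was left out of this order because of its short transcript. The form of some transcripts also differed between the states. For Nek2, the transcript of 3227 bases made up 75.1%, 77.5%, 71.6% and 77.3% of the gene's TPM in stimulated 3'RR deletion, hs3b-hs4 deletion, 3'PAL deletion and wild-type cells, against 38.0%, 35.3%, 40.6% and 35.2% at rest. For Birc5, the transcript of 947 bases made up 96.3%, 94.7%, 95.5% and 95.3%, against 86.7%, 63.6%, 79.9% and 56.7%, and a form of 3334 bases made up the rest. In both genes, picked after their values were seen, the stimulated and resting shares did not overlap. How many other genes show such a separation is not given here. These shares are kallisto estimates, and at rest they stand on few reads, such as 113 estimated counts for the Nek2 form and 47.3 for the Birc5 form in wild-type cells. No test was run on them.

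Genes of the same pathway that are not among the 47 mostly rose as well. Of 36 other checkpoint and kinetochore genes tested, 35 rose and none fell, led by adjusted p by Trip13, an ATPase that remodels Mad2 (3.57 ± 0.181, edgeR adjusted p = 9.6e-06), and Zwilch, a subunit of the RZZ complex at kinetochores (2.71 ± 0.157). Of 30 other spindle, centrosome and motor genes 26 rose, led by Psrc1 (4.26 ± 0.221) and Kif20b (2.23 ± 0.122), and 1 fell, Numa1, which anchors spindle poles (-0.62, edgeR adjusted p = 0.00026). Of 17 other genes of the anaphase promoting complex 15 rose and none fell, led by its subunits Anapc5 (1.37) and Cdc23 (1.35). Cdc23 shares exon sequence with Kif20a on the other strand, so reads of the pair may not be separated. The median log2 fold change was 2.32, 2.26 and 0.82 over these 3 lists, beside 3.3 for the 47 genes and -0.02 for all genes.

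The remaining lists of the pathway were more mixed. Among 14 other condensin and cohesin genes 12 rose, led by Cdca5 (3.14), which encodes sororin, and Ncapg2 (3.33), a subunit of condensin II, and 1 fell, Nipbl (-0.50), which loads cohesin. Of 14 other regulators of entry and exit 11 rose, led by Cks1b (3.53), a partner of cyclin-dependent kinases, and Cdc25a (1.86), and 1 fell, the phosphatase gene Cdc14a (-0.64). Of the 10 other cytokinesis genes tested 6 rose, led by Arhgap11a (1.65) and Iqgap3 (2.83), and 3 fell, the myosin genes Myh9 (-0.62) and Myh10 (-2.52) and Rhoa (-0.27), the GTPase that sets up the contractile ring. Myosin II and Rhoa also serve the cell cortex outside division. Of 21 transcriptional regulators of mitotic genes 14 rose, led by Tfdp1 (2.98), a partner of E2F factors, and Mybl2 (3.64), which encodes B-Myb, and 2 fell, Tfdp2 (-1.63) and Rbl2 (-0.39), a pocket protein of the DREAM complex. All of these changes passed edgeR's adjusted p under 0.05.

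For comparison with earlier phases of the cycle, 30 of 31 DNA replication genes rose, with a median log2 fold change of 2.47, led by Gins2 (3.29) and Pole (2.58), and 1 fell, the licensing factor gene Cdt1 (-0.98). Of 8 genes of G1 cyclins and their kinases 7 rose, with a median of 1.4, among them Ccnd2 (3.12), and 1 fell, Ccnd1 (-9.32). Ccnd1 stood at no more than 0.0744 CPM in stimulated libraries, so its fitted change depends on the prior count. At rest it stood at 69.2, 26.1, 14.6 and 22.9 CPM in 3'RR deletion, hs3b-hs4 deletion, 3'PAL deletion and wild-type cells, the same order as the monocyte and macrophage markers. Their part in Ccnd1 was not tested.

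The ratio of stimulated over resting level was ordered in much the same way between genotypes across the 47 genes. Its median was 6.78 in 3'RR deletion cells, 15.8 in hs3b-hs4 deletion cells, 6.40 in 3'PAL deletion cells and 12.9 in wild-type cells. In all 47 genes the ratios of both the 3'RR and the 3'PAL deletion lay below those of both the hs3b-hs4 deletion and wild-type, an order that 22.8% of genes with at least 10 CPM in a library also showed. Between hs3b-hs4 deletion and wild-type, the ratio was lower in hs3b-hs4 deletion cells in 4 genes and lower in wild-type cells in 43. In the deposited TPM it was lower in hs3b-hs4 deletion cells in 46 genes, and with TPM taken relative to the median of all genes in 5. With 1 library per genotype and state these ratios have no test, and their errors cover counting only. Genes whose level was at least 2-fold higher on the log2(CPM + 1) scale numbered 45 in 3'RR deletion cells and 47 in each of the hs3b-hs4 deletion, the 3'PAL deletion and wild-type, beside 16.9%, 17.9%, 15.7% and 22.5% of all genes with at least 10 CPM in the higher library.

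**Figure D2:**
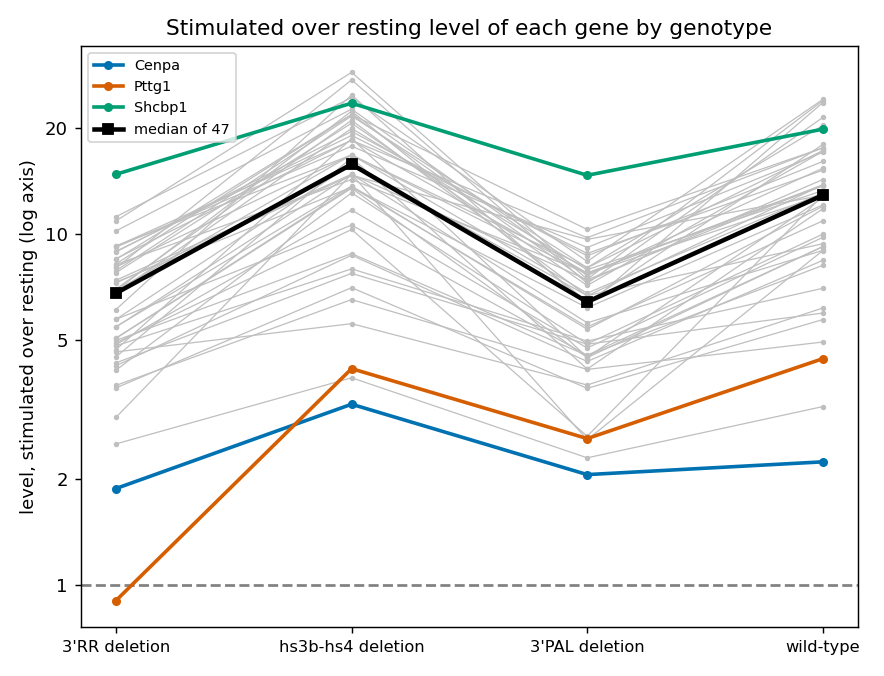
Stimulated over resting level of each of the 47 genes in each genotype on a log axis, with each gene as a line across the genotypes and 3 genes and the median in colour or black. The median ratio is 6.78 in the 3'RR deletion, 15.8 in the hs3b-hs4 deletion, 6.40 in the 3'PAL deletion and 12.9 in wild-type, and Pttg1 lies below 1 in the 3'RR deletion.

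Pttg1 was the single gene with a ratio below 1. It was 0.901 in 3'RR deletion cells (95% counting interval 0.773 to 1.05, from 317 counts stimulated and 371 at rest), 4.13 in hs3b-hs4 deletion cells (3.46 to 4.96), 2.61 in 3'PAL deletion cells (2.27 to 3.02) and 4.41 in wild-type cells (3.67 to 5.32). The kallisto estimates placed Pttg1 at 16.1 CPM in stimulated and 16.5 CPM in resting 3'RR deletion cells, so no rise was seen with either way of counting.

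The levels in each state give the parts of these ratios. At rest, the median ratio to wild-type over the 47 genes was 1.72 in 3'RR deletion cells, with all 47 above 1, and 1.47 in 3'PAL deletion cells, with 45 above 1. In hs3b-hs4 deletion cells it was 0.75, with 44 genes below 1. Over all genes with at least 10 CPM in the mutant or wild-type library, the medians were 1.04, 1.05 and 1.05 for the 3'RR, hs3b-hs4 and 3'PAL deletions. The shares of all genes above or below 1 are not given here. The direction for the hs3b-hs4 deletion depended on the scale. In the deposited TPM, which are not scaled for composition, the median ratios were 2.97, 1.33 and 2.16 for the 3'RR, hs3b-hs4 and 3'PAL deletions, with 45 genes above 1 for the hs3b-hs4 deletion and wild-type the lowest resting library in 45. The median TPM ratio over all genes with at least 10 CPM in the mutant or wild-type library was itself 1.85, 1.76 and 1.59. Relative to it, the medians of the 47 genes were 1.61, 0.752 and 1.36, with 41 genes below 1 for the hs3b-hs4 deletion. The orders that follow are in TMM-scaled CPM. The 3'RR and 3'PAL deletion libraries both stood above the other 2 resting libraries in 45 of the 47 genes, beside 16.4% of all genes with at least 10 CPM in a resting library. The 3'RR deletion library was the highest of the 4 in 43 genes (29.9% of all genes), and the hs3b-hs4 deletion library the lowest in 44 (21.5%). The summed level of the 47 genes was 1525, 642, 1356 and 858 CPM in resting 3'RR deletion, hs3b-hs4 deletion, 3'PAL deletion and wild-type cells.

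Members past 2-fold on the log2(CPM + 1) scale with at least 10 CPM in the higher library numbered 11 in resting 3'RR deletion cells, all higher than wild-type, beside 4.24% of all genes at that level higher and 1.44% lower. They numbered 7 in resting 3'PAL deletion cells, again all higher, beside 2.29% of all genes higher and 1.34% lower. The counts depended on the quantification and came to 6 and 4 with the kallisto estimates, and the second also came to 4 with library size alone. In resting hs3b-hs4 deletion cells none passed, beside 2.12% of all genes higher and 1.54% lower. The 4 largest ratios to wild-type in 3'RR deletion cells on that scale were those of Birc5 (15.8 against 4.00 CPM, ratio 3.96, 95% counting interval 3.10 to 5.11), Mki67 (376 against 132 CPM, 2.85, 2.73 to 2.98), Ube2c (17.4 against 5.61 CPM, 3.10, 2.52 to 3.86) and Anln (13.1 against 4.15 CPM, 3.14, 2.46 to 4.06). The same 4 genes led in 3'PAL deletion cells, with ratios of 3.18 for Birc5, 2.83 for Mki67, 3.92 for Ube2c and 2.58 for Anln. The 2 mutants share the wild-type library, so the denominators of these ratios are the same. With the kallisto estimates Birc5 stood at 23.5, 21.8 and 12.7 CPM in resting 3'RR deletion, 3'PAL deletion and wild-type cells. It thus fell short of 2-fold in both mutants, while Mki67, Ube2c and Anln stayed past it. At the other end Smc4 had ratios of 1.07 and 1.05, and Shcbp1 of 1.19 and 0.908 (0.657 to 1.26), in 3'RR and 3'PAL deletion cells.

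**Figure D3:**
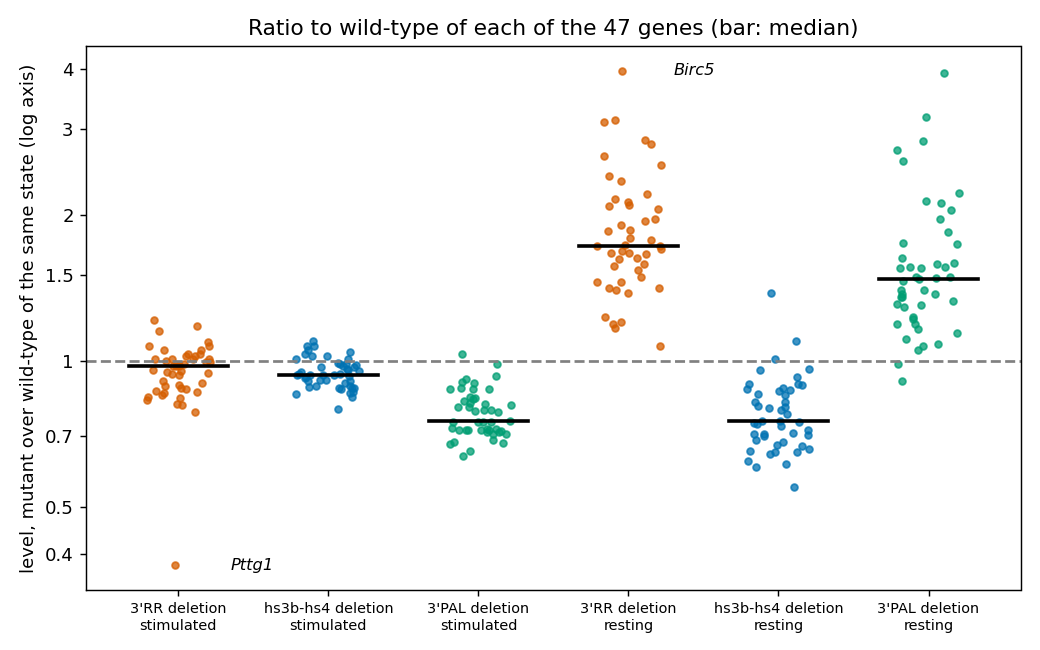
Ratio of the level in each mutant to that in wild-type of the same state, on a log axis, with a point for each of the 47 genes, a bar at the median and sideways scatter only for visibility. The medians are 0.975, 0.936 and 0.752 in stimulated cells and 1.72, 0.75 and 1.47 in resting cells of the 3'RR, hs3b-hs4 and 3'PAL deletions, with Pttg1 at 0.379 and Birc5 at 3.96.

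Markers of red cell precursors, which divide in the mouse spleen, also differed between the resting libraries. Of 13 such markers 12 are in the table, and they summed to 13624, 10757, 21818 and 3119.8 CPM in resting 3'RR deletion, hs3b-hs4 deletion, 3'PAL deletion and wild-type cells. The marker sum was highest in 3'PAL deletion and lowest in wild-type cells. The summed level of the mitotic genes was highest in 3'RR deletion and lowest in hs3b-hs4 deletion cells. The globin genes, which make up most of the marker sum, were high in all 3 mutants. Klf1, a transcription factor of these cells, stood at 12.0, 1.09, 10.3 and 0.727 CPM, Gata1 at 5.61, 0.818, 4.96 and 0.467 CPM, and Slc4a1, the red cell anion exchanger, at 373, 58.0, 437 and 16.6 CPM. For these 3 genes the 3'RR and 3'PAL deletion libraries were the high ones, as they were for the mitotic genes, and in hs3b-hs4 deletion cells the markers stood above wild-type while the mitotic genes mostly stood below it in TMM-scaled CPM. In stimulated cells the 12 markers summed to 155, 43.4, 244 and 10.8 CPM. The part of these cells in the resting levels of the mitotic genes was not tested.

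Markers of other cells of the spleen that divide or persist were summed as well. Germinal centre B cell markers summed to 75.2, 43.5, 65.5 and 72.8 CPM in resting 3'RR deletion, hs3b-hs4 deletion, 3'PAL deletion and wild-type cells, and plasma cell markers to 1019, 1829, 1633 and 956 CPM. The monocyte and macrophage sums given above were highest in 3'RR deletion and lowest in 3'PAL deletion cells. Among these lists, the germinal centre sum, like that of the mitotic genes, was highest in 3'RR deletion and lowest in hs3b-hs4 deletion cells. Unlike the sum of the mitotic genes, it was no higher in 3'PAL deletion cells than in wild-type cells. The part of these other cells in the resting levels was not tested either.

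**Figure D4:**
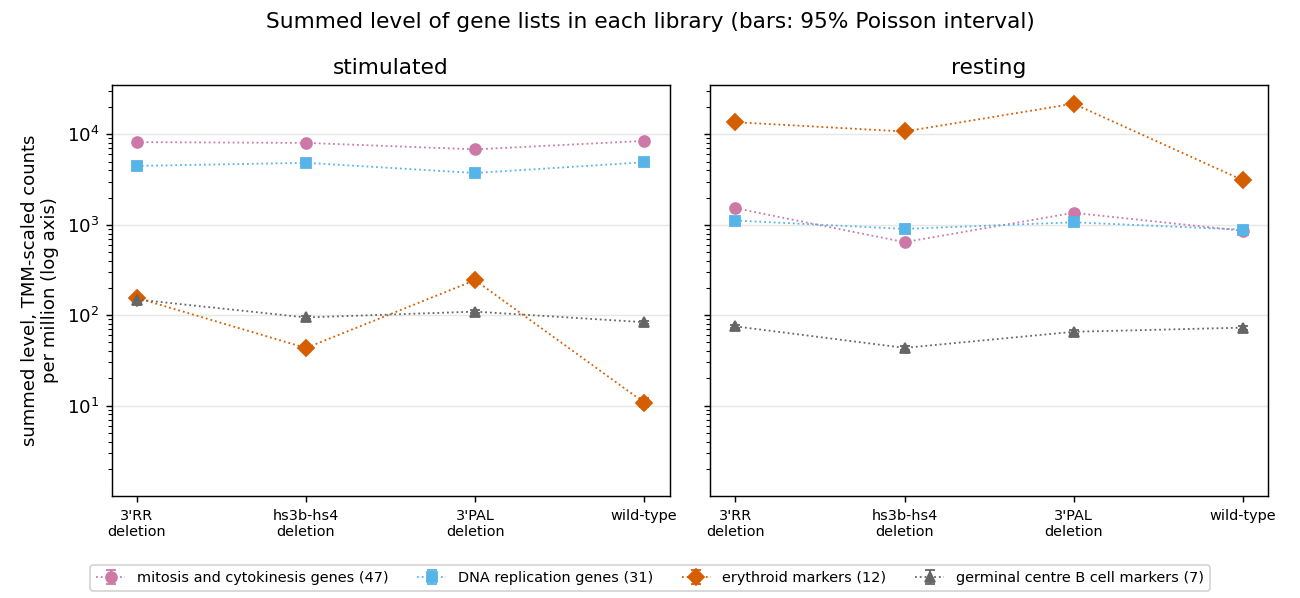
Summed level of the 47 genes, of 31 DNA replication genes, of 12 erythroid markers and of 7 germinal centre B cell markers in each library, in TMM-scaled CPM on a log axis, with 95% Poisson intervals that are mostly smaller than the symbols. At rest the 47 genes sum to 1525, 642, 1356 and 858 from left to right and the erythroid markers to 13624, 10757, 21818 and 3119.8; dotted lines only join the libraries of a list.

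In stimulated cells the order was a different one. The median ratio to wild-type was 0.975 in 3'RR deletion cells, 0.936 in hs3b-hs4 deletion cells and 0.752 in 3'PAL deletion cells. Over all genes with at least 10 CPM in the mutant or wild-type library, the medians were 0.997, 0.998 and 0.979. Among the stimulated 3'PAL deletion values 46 of the 47 genes stood below wild-type, each with a counting interval below 1. The share of all genes with such an interval is not given here. The stimulated 3'PAL deletion library was the lowest of the 4 in 44 genes, beside 38.6% of all genes with at least 10 CPM in a stimulated library. The lowest ratios were those of Ccnb1 (0.636), Spc25 (0.652) and Shcbp1 (0.672), and the 1 gene above wild-type was Cenpf (1.03, 95% counting interval 0.978 to 1.08). The summed level was 8202, 8044, 6826 and 8460.2 CPM in stimulated 3'RR deletion, hs3b-hs4 deletion, 3'PAL deletion and wild-type cells. In 3'RR deletion cells 1 gene passed the 2-fold rule, Pttg1, at 0.379 of wild-type (0.332 to 0.431), beside 1.41% of all genes lower and 1.84% higher. In hs3b-hs4 deletion and 3'PAL deletion cells none passed, beside 0.807% and 0.527% of all genes lower and 0.66% and 2.53% higher. Ratios on opposite sides of 1 in the 2 states, both with counting intervals off 1, were seen in 21, 2 and 35 of the 47 genes for the 3'RR, hs3b-hs4 and 3'PAL deletions, beside 10.3%, 10.0% and 18.3% of all genes with at least 10 CPM in a library.

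The neighbouring phases of the cycle did not repeat these orders in full. The summed level of the 31 DNA replication genes was 0.911, 0.985 and 0.76 times wild-type in stimulated 3'RR, hs3b-hs4 and 3'PAL deletion cells, where the 47 mitotic genes stood at 0.969, 0.951 and 0.807. At rest the replication genes stood at 1.26, 1.02 and 1.21 times wild-type, nearer to 1 than the mitotic genes at 1.78, 0.748 and 1.58. Mki67 alone held 376, 98.1, 373 and 132 CPM of the mitotic sum in resting 3'RR deletion, hs3b-hs4 deletion, 3'PAL deletion and wild-type cells. The median ratio over the mitotic genes, which does not weigh them by level, was 1.72, 0.75 and 1.47. The 8 genes of G1 cyclins and their kinases stood at 0.835, 0.891 and 0.672 in stimulated cells and at 1.35, 0.875 and 0.888 at rest. Their resting sum includes Ccnd1, which was highest in 3'RR deletion cells and had the order of the monocyte and macrophage markers. The sum was not taken without Ccnd1. The differences between these lists rest on 1 library each and were not tested.

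In the test of each mutant against wild-type over both states, none of the 47 genes was called. There the 2 libraries of a genotype serve as its replicates, and the change is taken to be the same in both. Called genes among the 47 numbered 0 for the 3'RR deletion, 0 for the hs3b-hs4 deletion and 0 for the 3'PAL deletion by edgeR, beside 1.88%, 0.135% and 0.514% of all genes, and DESeq2 also called 0 in each. At an unadjusted p under 0.05 the counts were 0, 0 and 0. The median log2 fold change of the 47 genes was 0.34, -0.21 and 0.05, beside 0.05, 0.04 and 0.03 over all genes. Of the 47 genes, 44 were above wild-type in the fit for the 3'RR deletion and 2 in that for the hs3b-hs4 deletion. The lowest p belonged to Cenpa for the 3'RR deletion (0.41 ± 0.189, edgeR adjusted p = 0.41), to Smc4 for the hs3b-hs4 deletion (-0.34 ± 0.191, edgeR adjusted p = 0.69) and to Shcbp1 for the 3'PAL deletion (-0.41 ± 0.190, edgeR adjusted p = 0.57). The fit had 3 residual degrees of freedom, and ratios that point in opposite ways in the 2 states, as for the 3'PAL deletion, add to its error rather than to its change.

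Genotypes named as lacking hs3b and hs4 (the 3'RR and hs3b-hs4 deletions) were also set against those not named so (the 3'PAL deletion and wild-type), with 2 libraries in each group and state. None of the 47 genes was called in stimulated cells, in resting cells or in the difference of the response to stimulation, beside 0.0% of all genes in each, and DESeq2 called 0 of the 47 in each as well. None of the 47 had an unadjusted p under 0.05 in any of the 3. Pttg1 had the lowest p in stimulated cells (-0.68 ± 0.457, edgeR adjusted p = 1.0) and in the difference of the response (-0.80 ± 0.652, edgeR adjusted p = 1.0), and Ttk in resting cells (-0.34 ± 0.353, edgeR adjusted p = 0.98). In resting cells each group holds a high and a low library, since the 3'RR and hs3b-hs4 deletions stood at 1525 and 642 CPM in summed level, and the 3'PAL deletion and wild-type at 1356 and 858 CPM.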

How the data were processed

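RNA-seq was deposited for 8 libraries, 1 per genotype and state, each from a pool of 4 mice. Ribosomal RNA was depleted and libraries were made with a stranded kit, per the labels' protocols. Per the submitters' processing notes, reads were processed with STAR 2.4.0a, featureCounts of Subread 1.4.6-p1 and kallisto 0.42.3 on mm10 (GRCm38), and the deposited files hold raw counts per gene, estimated counts per transcript and TPM per transcript. The sources used here do not give the strand setting, the annotation version or whether reads or pairs were counted. A row of the counts deposited without a gene name held 0.00621% to 0.0342% of the counts per library and was left out. Some annotation headers of the deposited TPM table are shifted, which was settled by their content.

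Counts were tested with edgeR 4.0.16 in R 4.3.3 (TMM scaling, filterByExpr, quasi-likelihood, Benjamini-Hochberg over 14789 genes, threshold 0.05) in a fit of genotype and state over all libraries (biological coefficient of variation 16%, residual degrees of freedom 3). A second fit had 4 groups of 2, genotypes that lack hs3b and hs4 or not, in each state (25.8% and 4). Estimated counts were summed per gene and rounded. Ratios within a state rest on 1 library each and have exact conditional binomial 95% intervals, which cover counting error only. A count of 0 would allow at most 0.106 to 0.156 CPM in a library (3 counts). The size rule asked for a difference of 1 or more in log2(CPM + 1) together with at least 10 CPM in the higher library. The code was tested on simulated counts. Alternatives were other scalings, DESeq2 1.42.0, no filter, the estimated counts, other sets of libraries and a pseudocount of 0.1. The run without the resting 3'RR and 3'PAL deletion libraries was not planned beforehand. Ratios in the deposited TPM summed per gene were chosen after seeing the data.

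The 47 genes and all lists were chosen with earlier results of these data known. Of each of the 9 roles, the genes with the lowest and the highest adjusted p for stimulation are given in every library. Within a state up to 4 genes per direction past the size rule are given, and of each other list the 2 with the lowest adjusted p and those called in the opposite direction. Other genes named were chosen after their values were seen.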

Additional observations from a re-analysis of the deposited data

Results flagged for a closer look

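Several results pointed to opposite sides of wild-type in the 2 states, with both counting intervals away from 1. The difference between the states was not tested, since each ratio rests on 1 mutant and 1 wild-type library, and all ratios of a state share the wild-type library. Each value that follows is the ratio to wild-type in stimulated cells divided by that in resting cells.

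In 3'RR deletion cells this value was 0.545 for the summed level of the 47 genes. Among the genes given in every library it was 0.204 for Pttg1, 0.372 for Hmmr, 0.466 for Bub1b, 0.523 for Nek2, 0.561 for Espl1, 0.623 for Tpx2, 0.75 for Mad2l1 and 0.753 for Ndc80. All of these stood above wild-type at rest and below it after stimulation.

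In 3'PAL deletion cells it was 0.511 for the summed level. It was 0.264 for Birc5, 0.289 for Anln, 0.336 for Hmmr, 0.345 for Ccnb1, 0.348 for Mki67, 0.356 for Ccna2 and 0.49 for Aurka. It was 0.553 for Nek2, 0.584 for Bub1b, 0.593 for Pttg1, 0.596 for Tpx2, 0.603 for Mad2l1 and 0.708 for Ncapd2. These too stood above wild-type at rest and below it after stimulation.

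In hs3b-hs4 deletion cells the value was 1.4 for Mki67, which stood below wild-type at rest and above it after stimulation. Over all 47 genes, opposite sides were seen in 21 genes for the 3'RR deletion, 2 for the hs3b-hs4 deletion and 35 for the 3'PAL deletion, beside 10.3%, 10.0% and 18.3% of all genes with at least 10 CPM in a library.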

How the results depend on the processing

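The genotype term of the fit pairs the stimulated and resting libraries of a genotype, and without that term all 47 genes still rose. All 47 rose under every alternative run by count of calls (47 to 47 with each library left out in turn), except that with the kallisto estimates Ncapd2 fell by 0.49 and 46 rose. The counts of the 47 genes called for the mutants and for hs3b and hs4 lacking or not were 0 under each alternative run (0 to 0 with a library left out). Members past the size rule in resting 3'RR deletion cells numbered 6 with the kallisto estimates and 11 in the main analysis. In resting 3'PAL deletion cells they numbered 4 with library size alone, 4 with the kallisto estimates and 7 in the main analysis. The cause of these differences was not tested. With library size alone, the ratio of summed levels to wild-type at rest was 1.67, 0.733 and 1.39 for the 3'RR, hs3b-hs4 and 3'PAL deletions. With the kallisto estimates it was 1.56, 0.872 and 1.47. All of these lay on the same sides of wild-type as in the main analysis. In the kallisto estimates Ncapd2 alone stood at 1624, 1141, 1635 and 1142 CPM in resting 3'RR deletion, hs3b-hs4 deletion, 3'PAL deletion and wild-type cells. Its TPM came mostly from its short transcript, and the sums were not taken without this gene. In the deposited TPM, an alternative chosen after seeing the data, the median ratio of the 47 genes at rest was 1.33 for the hs3b-hs4 deletion, the reverse of 0.75, and 0.752 relative to the median of all genes. In stimulated cells these ratios were 0.928, 0.951 and 0.814 with library size alone and 0.972, 0.913 and 0.788 with the kallisto estimates. The summed level itself moved beyond its counting interval in all 8 libraries under both. Differences within a state have no replicate behind them, whatever the depth.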
